A study of Mus musculus with 4 samples.

Results

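Rad21 binding was described at Pax5, Ebf1, Ikzf1, Tcf3 and Foxo1, 5 genes for transcription factors of the early B lineage. The members are the Rad21 peaks of each library whose midpoint lay in a gene window, called the body here, or within 200 kb on either side of it, called the upstream or downstream flank by the direction of transcription. Peaks of the 4 libraries that touched or overlapped were merged, which gave 106 regions at these genes out of 34743 in all, 26 in bodies and 80 in flanks. At these genes the lists of wild-type (WT) cells held 71 and 69 peaks and the 53BP1 knockout lists 79 and 72, out of 21971 to 25145 peaks per list. The cells were v-Abl transformed mouse pro-B lines, early B cells made to grow by a viral oncogene. All lacked RAG1, carried an Emu-Bcl2 transgene and received STI-571, an inhibitor of the Abl kinase, at 3 uM for 4 days, so both genotypes share these features. They differed in the knockout of 53BP1, a chromatin protein of DNA break repair, with 2 libraries per genotype. Clones and cultures are not named in the labels, so the spread between libraries of a genotype may be technical. Titles and extraction protocol name Rad21 as the target, whereas the treatment label of each sample names an antibody to 53BP1. Peak lists carry no expression values, so neither the pro-B identity nor the genotype was checked against marker genes.

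Cohesin is a ring complex that extrudes chromatin into loops, and Rad21 is the subunit that closes the ring. Its peaks mark places where cohesin dwells, most often sites bound by the insulator protein CTCF, and also active promoters and enhancers. Tcf3 encodes the E2A proteins, which with the Ebf1 product start the B cell program. Pax5 holds cells to the B lineage, Ikzf1 encodes Ikaros, a zinc finger regulator of lymphoid development, and Foxo1 activates the Rag genes and other early B cell genes.

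Positions of peaks and windows are in mm9. The Tcf3 window lay on chromosome 10 from 79872000 to 79897000, on the minus strand. The Ebf1 window lay on chromosome 11 from 44431000 to 44822000, on the plus strand. The Pax5 window lay on chromosome 4 from 44544000 to 44723000, on the minus strand. The Ikzf1 window spanned 11585000 to 11673000 of chromosome 11 and the Foxo1 window 52072000 to 52154000 of chromosome 3, both on the plus strand. Window ends are rounded to the kb, and distances run from the 5′ end of a window to the middle of a region. The windows were 25 kb long for Tcf3, 391 kb for Ebf1, 179 kb for Pax5, 88 kb for Ikzf1 and 82 kb for Foxo1. In the RefSeq table of GRCm38 the Pax5 gene measured 185.9 kb, more than its window, against 24.4 kb for Tcf3, 390.0 kb for Ebf1, 88.0 kb for Ikzf1 and 81.8 kb for Foxo1. The first neighbours upstream and downstream in that table were Onecut3 and Uqcr11 for Tcf3, Rnf145 and Clint1 for Ebf1, and Zcchc7 and Melk for Pax5. For Ikzf1 they were 4930512M02Rik and Fignl1, and for Foxo1 Maml3 and Cog6. No annotation of mm9 was used, so peaks are not assigned to exons or introns and other genes of the pathway were not counted.

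Of the 5 genes, Pax5 alone had a region called in all 4 libraries within 2 kb of its 5′ end. The nearest such region lay 5.1 kb from that end for Foxo1, 5.44 kb for Ikzf1, 6.57 kb for Ebf1 and 12.0 kb for Tcf3. The Tcf3 body held no region called in more than 1 library. The 250 bases before the start of Pax5 and of Tcf3 are shown, 5′ to 3′, from RefSeq (GRCm38.p6, chr4:44710695-44710944 and chr10:80433636-80433885, minus strand). These coordinates cannot be set beside the mm9 positions. Capitals mark AGGGGGC or AGGTGGC, words of the CTCF motif core that were searched on both strands.
Pax5: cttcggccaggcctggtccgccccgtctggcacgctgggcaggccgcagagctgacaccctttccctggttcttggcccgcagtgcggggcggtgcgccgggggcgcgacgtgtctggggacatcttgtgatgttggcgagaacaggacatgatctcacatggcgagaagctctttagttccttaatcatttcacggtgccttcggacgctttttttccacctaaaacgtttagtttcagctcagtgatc
Tcf3: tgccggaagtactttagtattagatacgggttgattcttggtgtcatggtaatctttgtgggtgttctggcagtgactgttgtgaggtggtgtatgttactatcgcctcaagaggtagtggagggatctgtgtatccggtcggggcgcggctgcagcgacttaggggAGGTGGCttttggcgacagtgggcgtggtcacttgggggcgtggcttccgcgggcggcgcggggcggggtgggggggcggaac
AGGTGGC occurred once in the Tcf3 promoter, on the printed strand, and neither word in that of Pax5. The promoters listed for Ebf1, Ikzf1 and Foxo1 held neither word. Of 32851 promoters of this length, 9.43% held AGGGGGC, 5.08% held AGGTGGC and 14.0% held at least one of them.

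Rad21 peaks were dense around these genes. Over 4 libraries the bodies held 19.9 ± 1.25 peaks per Mb and the flanks 28.8 ± 2.02 (mean ± SD). The median of 5287 windows of 500 kb along the chromosomes was 5.5 peaks per Mb, their mean 8.79 and their 90th percentile 22.5. Bodies were less dense than flanks in each library, by 6.58 and 7.39 peaks per Mb in the WT lists and by 10.6 and 10.7 in the knockout lists. The genes did not share 1 order. Pax5 was denser in its body, with 30.7 ± 3.23 peaks per Mb against 10.6 ± 3.15 in its flanks. Ebf1 was the reverse, with 12.1 ± 2.45 against 28.8 ± 3.23. It supplied 0.391 of the 0.765 Mb of all bodies, so it weighed most in their sum. In both genes the 4 body values lay apart from the 4 flank values. Body and flank values overlapped for Ikzf1 (25.6 ± 5.68 and 25.6 ± 3.15) and for Foxo1 (30.5 ± 12.2 and 33.1 ± 5.15). The flanks of Tcf3 were the densest of the 5 pairs on average, at 45.6 ± 7.18 peaks per Mb.

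**Figure D1:**
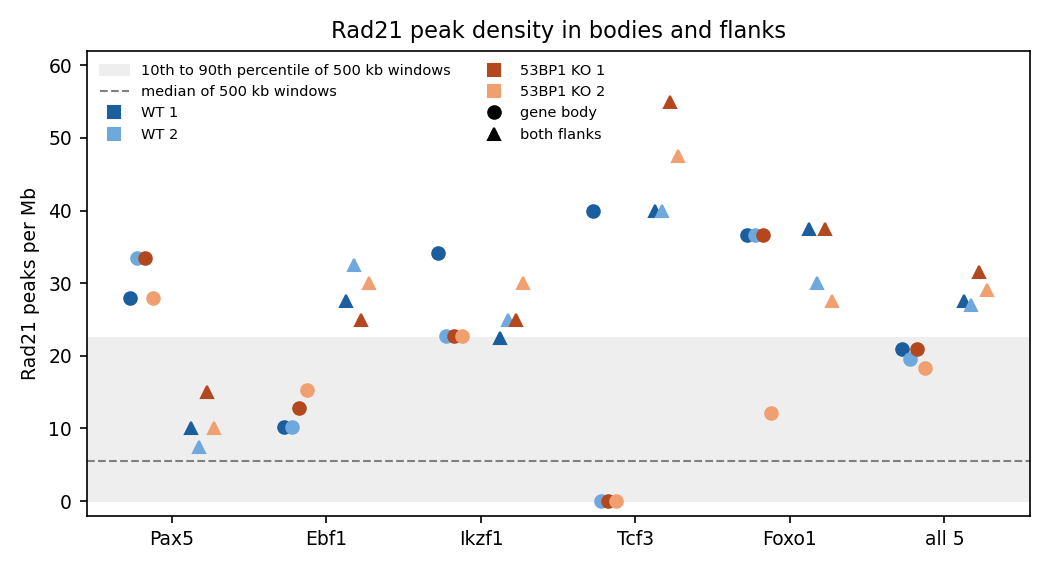
Rad21 peaks per Mb (y axis) in the body (circles) and in both flanks (triangles) of each gene, 1 point per library, beside the median and the 10th to 90th percentile of 5287 windows of 500 kb. Pax5 lies higher in the body and Ebf1 higher in the flanks in all 4 libraries.

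Most sites at these genes did not follow genotype. Of the 106 regions, 51 (48.1%) were called in all 4 libraries, against 41.7% of all regions of the genome. These were 10 of 26 regions in bodies and 41 of 80 in flanks. Both knockout libraries, and no WT library, called 3 regions (2.83%), against 3.05% of all regions, all 3 in flanks. Both WT libraries alone called 0 regions, against 2.19% of all regions. A further 8 regions were called in 3 libraries, 9 in a mixed pair of 1 WT and 1 knockout library, and 35 in a single library. The share that followed the knockout was thus near the background.

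**Figure D2:**
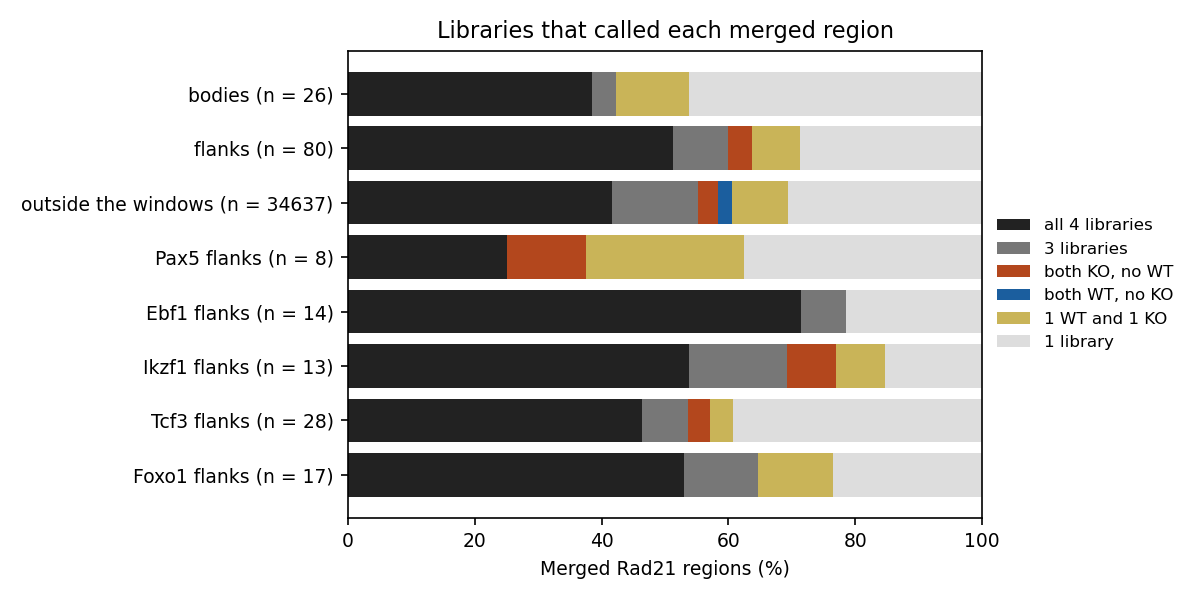
Share of merged regions (x axis, %) by the libraries that called them, for bodies, flanks, the rest of the genome and the flanks of each gene, with the number of regions in brackets. Regions of both WT libraries alone (blue) make up 2.19% outside the windows and 0 of the 106 regions in them, where that share would give few.

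Tcf3 had an almost empty body between crowded flanks. The body held 1 peak in the first WT library and 0 in the others, and a body this short holds few peaks at any density. That peak, at 79892027 to 79892673, had a fold of 3.20, the enrichment over background given by the authors' caller, and stood at percentile 4.46 of its list by fold. The 20.0 kb from there to the 3′ end held no region. The nearest region called in all 4 libraries lay 12.0 kb upstream, at 79908526 to 79909510, and was the strongest of that flank. Its folds were 5.29 and 4.90 in WT libraries against 5.74 and 4.53 in knockout libraries, so the genotypes overlapped. Within their own lists these are percentiles 88.3, 81.9, 90.8 and 88.7. Folds ran lower throughout the second knockout list, with a median of 3.67 against 4.06 to 4.15 in the other lists. Downstream the strongest shared region, at 79802614 to 79803422, had folds of 3.82 and 4.85 against 3.71 and 4.51. Of 14 regions on each side, 8 were shared upstream and 5 downstream.

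Peak counts in the Tcf3 flanks were 16 and 16 for WT against 22 and 19 for the knockout. Both knockout counts lay above both WT counts, by a mean of 4.5 peaks (20.5 ± 2.12 against 16.0 ± 0, SD, n = 2 each). A two-sided exact permutation test gave p = 0.33, the lowest that 2 against 2 libraries allow, so this test cannot call any difference between the genotypes here. The order held upstream (9 and 8 against 13 and 10) and downstream (7 and 8 against 9 and 9). Of all windows of 500 kb, 10.1% had both knockout counts above both WT counts and 3.88% both below. The 10th percentile of these windows was 0 peaks per Mb and the 25th 0.5, and a window without peaks can be in neither state. The shares were not computed for windows as dense as the Tcf3 flanks. By peak count, Tcf3 alone of the 5 pairs of flanks had both knockout counts above both WT counts, and none had both below. Peaks covered 9.91 and 10.2 kb of the Tcf3 flanks in WT libraries and 11.6 and 12.2 kb in knockout libraries. Covered length also lay apart in the Ebf1 flanks, but with the knockout lower, at 7.97 and 7.69 kb for WT against 6.79 and 7.18 kb. In the flanks of Pax5, Ikzf1 and Foxo1 it overlapped between the genotypes. Of the 11 regions in the Tcf3 flanks called in a single library, 9 came from a knockout list, against 65.3% of such regions in the genome.

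The size of the gap at Tcf3 varied with the setting. The gap was 4 peaks with lists of equal length, 1.5 peaks at a −log10 q of 5 or more, 1 at a fold of 4 or more, and 1 with flanks of 100 kb. Thresholds and shorter flanks leave fewer peaks to count, so these gaps are not on the same scale. On the full lists the gap was 3 without the first knockout library and 6 without the second. Per 10000 peaks of each list, the Tcf3 flanks held 7.28 and 6.95 in WT lists against 8.75 and 8.34 in knockout lists, which lay apart. Chromosome 10 carried 6.97% of the second knockout list, against 5.39 to 5.52% of the other lists. Per 1000 peaks on chromosome 10, the WT libraries had 13.2 and 12.6 in the Tcf3 flanks and the knockout libraries 16.2 and 12.0, and the groups then overlapped.

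Ebf1, the longest window, had its shared body regions toward the 3′ end. Its body held 4 and 4 peaks for WT against 5 and 6 for the knockout. Of its 11 regions, 2 were called in all 4 libraries, both in the fifth of 5 equal parts counted from the 5′ end. One spanned the 3′ end itself, at 44821348 to 44822449, with WT folds of 5.83 and 5.56 and knockout folds of 6.15 and 4.90. It ranked at percentiles 93.7 to 94.9 of its lists, the highest of any shared region in the 5 bodies by its lowest percentile. The other, at 44763136 to 44764253, had folds of 4.90 and 3.82 against 4.81 and 4.29. The first 332 kb of the body, 84.9% of it, had no region shared by all libraries. Gaps between neighbouring shared regions of the genome had a median of 60.0 kb and a 90th percentile of 332 kb. Inside that stretch, 115 kb from 44462913 to 44578102 held no peak of any library. Close to the 5′ end, at 44432726 to 44433049, a region was called in the first WT library (fold 3.67) and the second knockout library (3.44).

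The Ebf1 body was the only 1 of 5 bodies in which the counts of the genotypes lay apart, by 1.5 peaks. By covered length the genotypes overlapped in this body, at 1.09 and 2.29 kb for WT against 2.19 and 3.35 kb. Of its 7 regions called in a single library, 5 (71.4%) came from knockout lists, near the 65.3% of the genome. The difference in peak count was 1 without the second knockout library and 2 without the first. It was 0 with lists cut to equal length and 0 at a −log10 q of 5 or more. The Ebf1 flanks held 11 and 13 peaks for WT against 10 and 12 for the knockout, which overlapped by count. Of 9 upstream regions, 7 were shared, 3 of them within 50 kb of the gene. The strongest lay 31.2 kb upstream, at 44399534 to 44400040, with WT folds of 6.08 and 6.66 and knockout folds of 5.61 and 5.21. By percentile of its own list it stood at 96.6 and 99.1 in WT and at 89.3 and 97.4 in the knockout, which overlapped. Downstream 3 of 5 regions were shared, and the strongest of these by the lowest percentile, at 44973991 to 44975393, had folds of 4.70 and 3.87 against 4.28 and 3.61.

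**Figure D3:**
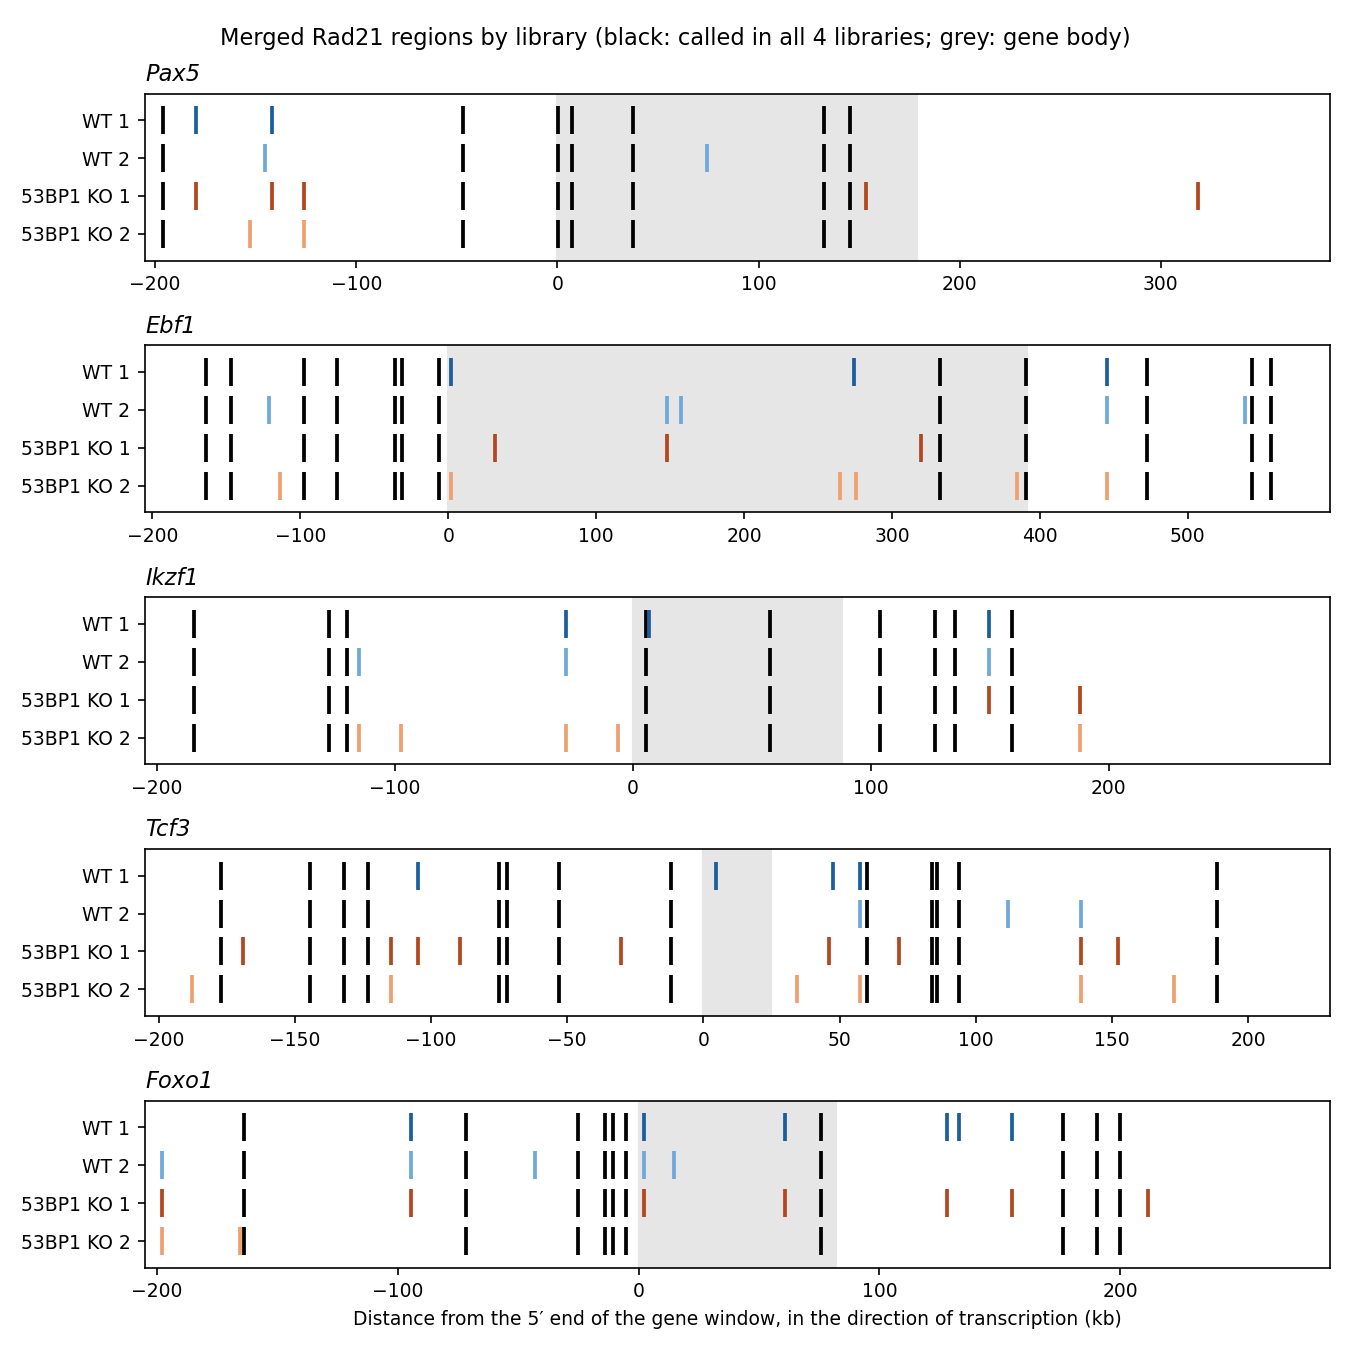
Merged Rad21 regions around each gene, by distance from the 5′ end of the window in kb (x axis) and by library (rows). Black marks are regions called in all 4 libraries, coloured marks those called in fewer, and the body is grey. Shared regions lie across the Pax5 body and toward the 3′ end of the Ebf1 body, and the Tcf3 body has none.

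Pax5 carried its shared regions inside the gene. The body held 5 and 6 peaks for WT against 6 and 5 for the knockout, with equal means of 5.5 ± 0.71. Covered length lay apart in this body, at 2.92 and 3.16 kb for WT against 4.07 and 3.19 kb. Of its 7 regions, 5 were called in all 4 libraries, and they lay 0.50, 7.46, 37.5, 133 and 145 kb from the 5′ end. The one at the 5′ end, at 44721880 to 44723119, had WT folds of 4.29 and 4.79 and knockout folds of 4.14 and 3.96. Both knockout folds were below both WT folds, but folds belong to their lists, and by percentile the order was 59.1 and 78.8 against 49.9 and 67.6, which overlapped. The region 145 kb inside, at 44577478 to 44578066, was the strongest by its lowest percentile, with folds of 4.33 and 5.89 against 4.46 and 4.45. The one 37.5 kb inside, at 44684933 to 44686004, was the sole Pax5 region with a −log10 q of 5 or more in each list, and its folds were 3.94 and 5.03 against 4.53 and 3.42. The region 7.46 kb inside was 1843 bp wide and weak, with folds from 2.48 to 2.69, and was still called in each library. The longest part of the body with no region, 57.9 kb, ran from 44590561 to 44648476.

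Outside the Pax5 body peaks were few. Upstream there were 4 and 3 peaks for WT against 5 and 4 for the knockout, and downstream 0 in 3 libraries and 1 in the first knockout library. Of the 8 flank regions, 2 were shared, both upstream. The stronger, 46.8 kb upstream at 44768865 to 44770742, had folds of 4.48 and 3.42 against 4.66 and 3.00. A region 126 kb upstream, at 44848647 to 44849793, was called in the knockout libraries alone, with folds of 3.72 and 3.23 and −log10 q values of 1.85 and 1.34.

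Ikzf1 had weak shared regions in its body and strong ones in its flanks. The body held 3 and 2 peaks for WT against 2 and 2 for the knockout. A shared region 5.44 kb inside the 5′ end, at 11590099 to 11590783, had folds of 3.79 and 3.31 against 3.64 and 3.89, and the next, 57.8 kb inside, had 3.53 and 4.36 against 3.82 and 2.97. Between them 50.2 kb, or 57.0% of the body, held no region. The flanks held 9 and 10 peaks for WT against 10 and 12 for the knockout. Of 13 flank regions, 7 were shared, and none of these lay within 50 kb upstream. The strongest upstream was 184 kb away, at 11399712 to 11401397, with WT folds of 4.86 and 4.81 and knockout folds of 6.99 and 4.63. The first shared region downstream lay 15.9 kb after the 3′ end. The strongest downstream, at 11719853 to 11721025, had folds of 5.61 and 6.28 against 6.15 and 5.07, percentiles 92.6 to 98.4. A region at 11772552 to 11773340, also downstream, was called in the knockout libraries alone, with folds of 3.28 and 3.60.

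Foxo1 had a row of shared regions before its 5′ end. Of 5 regions in the 50 kb upstream, 4 were called in all 4 libraries, at 5.1, 10.6, 14.0 and 25.1 kb. The farthest of these, at 52046165 to 52047729, was the strongest of the flank, with folds of 4.24 and 5.01 against 4.30 and 3.31. The other 3 were weaker, with folds from 2.28 to 4.23. The body held 3 and 3 peaks for WT against 3 and 1 for the knockout. Its sole shared region, toward the 3′ end at 52147517 to 52148105, had folds of 4.70 and 3.66 against 4.02 and 3.28. A region 2.06 kb inside the 5′ end was called in all but the second knockout library, with folds of 2.78 to 2.89. The longest part of the body with no region measured 44.6 kb.

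The peak counts of the Foxo1 flanks did not lie apart by genotype. Upstream there were 8 and 9 peaks for WT against 8 and 8 for the knockout. Downstream there were 7 and 3 for WT against 7 and 3 for the knockout, so these counts went with the replicate number. The length covered downstream did lie apart, at 2.69 and 2.46 kb for WT against 3.56 and 3.26 kb, and upstream it overlapped. The strongest shared region downstream, at 52247681 to 52248895, had WT folds of 5.42 and 4.53 and knockout folds of 5.75 and 4.14, again higher in both libraries of number 1. The part of the replicate number in these values was not tested.

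**Figure D4:**
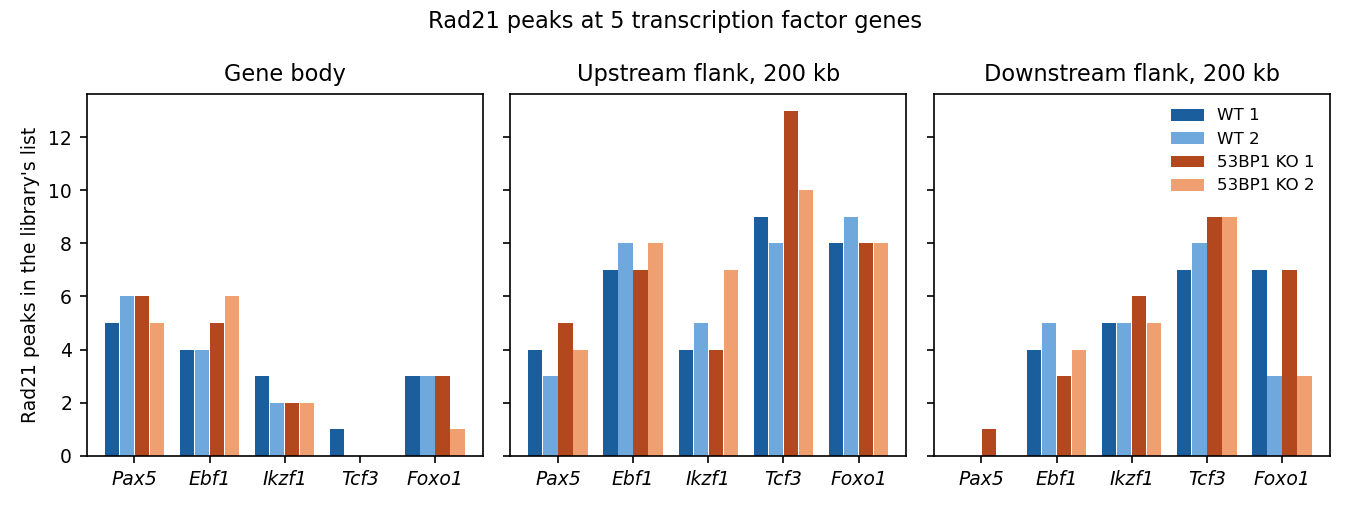
Number of Rad21 peaks (y axis) in the body and in the 200 kb upstream and downstream flanks of each gene, 1 bar per library. Both knockout bars exceed both WT bars in the Ebf1 body and in the upstream and downstream flanks of Tcf3, and the Foxo1 downstream bars are 7, 3, 7 and 3.

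Shared regions differed in strength from gene to gene. Strength was read within each list, as the percentile of a region's fold among all peaks of that list. The 14484 regions of the genome called in all 4 libraries had median percentiles of 60.8 and 62.9 in the WT lists and 66.6 and 58.8 in the knockout lists. The 7 shared regions in the Ikzf1 flanks lay higher in each list, with medians of 81.5, 80.1, 87.6 and 83.3 in the same order. The 9 in the Foxo1 flanks lay lower in each list, at 11.9, 15.8, 43.5 and 16.5. By mean percentile over the 4 lists, the 6 upstream had a median of 12.8 and the 3 downstream 66.5. The genome had 60.0 on that measure, so the low median was that of the upstream flank. Low medians were not particular to Foxo1. The 2 in the Pax5 flanks had 33.9, 7.69, 34.7 and 3.66, and the 2 in the Ikzf1 body 25.8, 36.7, 30.0 and 34.7. The 2 in the Ebf1 body lay higher in each list, at 87.5, 65.4, 84.1 and 88.2. The 13 of the Tcf3 flanks had medians of 49.4, 40.0, 56.1 and 45.5, and the 10 of the Ebf1 flanks 51.1, 46.3, 52.8 and 41.5. The sides of Tcf3 differed too, at 54.2 upstream and 24.6 downstream by mean percentile over the 4 lists. These medians describe few regions, and the differences among genes were not tested. A −log10 q of 5 or more in every list was reached by 11 of the 51 shared regions, 4 of them in the Ikzf1 flanks, against 2348 of 14484 in the genome. The median width of shared regions was 1081 bp here and 919 bp in the genome. The median of their mean percentiles over the 4 lists was 50.3 here and 60.0 in the genome.

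**Figure D5:**
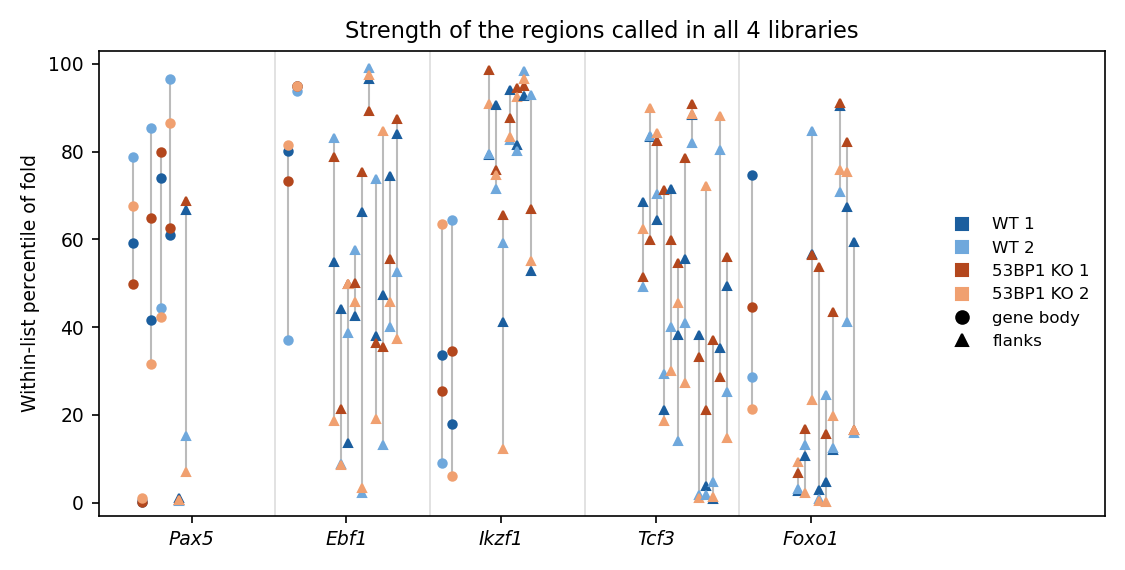
Within-list percentile of fold (y axis) of the regions called in all 4 libraries, by gene. Each grey line joins the 4 libraries of 1 region, with body regions as circles and flank regions as triangles. Ikzf1 flank regions lie high, and most Foxo1 flank regions lie below the genome-wide medians of 58.8 to 66.6.

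The 3 regions called in the knockout libraries alone were weak. They were those described at Pax5 and Ikzf1 and 1 in the upstream flank of Tcf3, at 80011216 to 80012131, with folds of 4.06 and 3.41. No −log10 q of theirs was above 2.82. Their mean percentiles of fold were 23.4, 26.5 and 38.5. All 4888 regions of the genome called in any 2 libraries had a median of 33.5, so such weakness was common in that class. Under the alternatives, regions that followed genotype were counted in both directions together. They numbered 0 among peaks of fold 4 or more and 4 at a −log10 q of 5 or more. Where peaks had to cover 50% of a region, they numbered 8. The genome-wide shares at these settings were not computed.

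Summed over the 5 genes, the bodies held 16 and 15 peaks for WT against 16 and 14 for the knockout, a difference of −0.5 (15.0 ± 1.41 against 15.5 ± 0.71, SD, n = 2 each). The flanks held 55 and 54 for WT against 63 and 58 for the knockout, a difference of 6 (60.5 ± 3.54 against 54.5 ± 0.71). The two-sided exact permutation test gave p = 1 for bodies and p = 0.33 for flanks. Per 10000 peaks of each list, the bodies held 7.28 and 6.51 in WT lists against 6.36 and 6.14 in knockout lists, and the flanks 25.0 and 23.4 against 25.1 and 25.4. On that scale the groups lay apart in both, lower for the knockout in bodies and higher in flanks, but narrowly. The nearest values were 25.03 for WT against 25.05 for the knockout in flanks, and 6.51 against 6.36 in bodies. The body difference was −3.5 peaks with lists of equal length. The flank difference was 1.5 peaks without Tcf3, 0 with flanks of 100 kb, and −1.5 at a fold of 4 or more. Thresholds act unequally on the lists. The median fold was 3.67 in the second knockout list and 4.06 to 4.15 in the others. A −log10 q of 5 or more was reached by 16.5% of its peaks, against 25.9 to 27.7% in the others. The part of this in the differences was not tested. The flank difference was 3.5 without the first knockout library, 8.5 without the second, and 7.5 with assignment by any overlap. Within replicate numbers, knockout minus WT in flanks was 8 for number 1 and 4 for number 2, and in bodies 0 and −1. Peaks covered 44.7 and 44.7 kb of the windows and flanks in WT libraries and 44.6 and 51.4 kb in knockout libraries, so the genotypes overlapped. The mean difference of 3.34 kb became −0.055 kb without the second knockout library.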

How the data were processed

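Rad21 ChIP-seq was taken from 2 WT and 2 53BP1 knockout libraries, grouped by sample title. Per the submitters' processing notes, the tools were MACS2 2.2.7.1, Bowtie2 2.4.4, deepTools 3.5.1 and SAMtools 1.15.1, with mm9 as the build. Tool settings and the use of an input control were not given in the sources used here. The authors deposited a separate list of broad peaks for each library. The deposited fold is a ratio to background from the authors' caller, and the deposited −log10 p and −log10 q belong to each peak. The deposited score equals the −log10 q multiplied by 10, to within 1. Read depth is unknown, and no count model was possible.

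Peaks were assigned by midpoint, on chromosomes 1 to 19 and X. Merging needed contact or overlap. Coordinates are 1-based. Differences of group means were tested by exact permutation (Python 3.11.15). Merging and counting were tested on simulated lists. Regions named were the strongest shared one of each body and flank (the highest of the lowest within-list percentiles of fold), any within 2 kb of a 5′ end, those following genotype, and the longest stretch of each body without a region. Other regions were named after their values were seen. The genes, windows, gene lists and tests were chosen with earlier results of these data known. Alternatives were thresholds of q and fold, lists of equal length, assignment by any overlap, flanks of 100 kb, scaling to list length, other rules of merging, and each library left out. The scaling to chromosome 10 and the sum without Tcf3 were added after seeing the data.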

Additional observations from a re-analysis of the deposited data

How the results depend on the processing

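The exact permutation test cannot go below p = 0.33 with 2 libraries per genotype, so only sizes are compared. The replicate block, which averages differences within replicate numbers, gave the same 6 flank peaks by construction. The numbers were not treated as pairing the libraries, since same-numbered deviations over 2302 windows of 1 Mb correlated at 0.03. Libraries of 1 number do share a prefix in their peak names, and its part in the results was not tested. Of 36 values for all 5 genes together, apart from libraries left out, 23 stayed within the spread between libraries, or within 1.5 times for counts, and 13 did not. The spread was that of the full lists, also where a threshold left fewer peaks. At a −log10 q of 5 or more, the density of bodies minus flanks was −4.30 peaks per Mb and 11 regions were shared. A fold of 4 or more gave −1.5 flank peaks, −0.48 kb covered, −5.44 peaks per Mb, 12 shared regions and 0 that followed genotype. Lists of equal length gave −3.5 body peaks. Flanks of 100 kb gave 0 flank peaks and −13.1 peaks per Mb. Per 10000 peaks the flanks differed by 1.01. Where peaks had to cover 50% of a region, 21 were shared and 8 followed genotype. No genome-wide share was computed for the region counts under any alternative, so they stand without a background. The sum without Tcf3, chosen after seeing the data, was 1.5 flank peaks. With 1 library left out, 11 to 17 regions followed genotype, since 1 library then stands for its genotype, and the covered length differed by −0.055 to 6.74 kb. Summed over the 5 genes, bodies were less dense than flanks under each alternative run for density, none of which left out a gene. Ebf1, less dense in its body, supplied 0.391 of the 0.765 Mb of bodies, and the density without it was not computed. Other causes of these shifts were not tested. Depth is unknown, so a region that a library did not call is not shown to be absent there.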

Other observations

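Of the 9 regions called in 1 WT and 1 knockout library, 6 came from the libraries of replicate number 1 and 1 from each other mixed pair. In the genome the pair of number 1 gave 849 such regions, and the other mixed pairs gave 1009, 738 and 474. Foxo1 held 3 of the 6, Pax5 held 2 and Tcf3 held 1. Peak names carry a prefix that both libraries of a replicate number have in common, and its part in these counts was not tested.

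The bodies also differed in how far they ran without a region shared by all 4 libraries. In Foxo1 this was 75.5 kb, or 92.1% of the body, from the 5′ end on. In Pax5 it was 94.4 kb, or 52.7%, and in Ikzf1 51.4 kb, or 58.5%.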
